A study of Mus musculus with 8 samples.

Results

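The endothelial marker genes are 33 mouse genes for the surface proteins, junction proteins and transcription factors that mark the cells lining blood vessels. They were taken by symbol, and all 33 are among the 24328 symbols measured in 8 RNA-seq libraries of muscle stem cells. These stem cells, also called satellite cells, lie between muscle fibre and basement membrane and are not endothelial. The values give the level of RNA from these genes in a preparation meant to hold another cell type. Which cells made that RNA was not tested.

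The 8 libraries come from skeletal muscle of C57BL/6 mice aged 2 months, with 2 libraries in each of 4 groups. Cells labelled PFA-perfused (perfused with the fixative paraformaldehyde) and cells labelled PBS-perfused (perfused with saline) came from mice with the genotype Pax7-nGFP, a reporter that marks Pax7-expressing nuclei. Unperfused cells and injury-activated cells, the latter taken 2.5 days after an injury whose kind is not given in the sources used here, came from wild-type mice without perfusion. The fixed cells were digested with more collagenase and their RNA was extracted with a kit meant for paraffin-embedded tissue, whereas a low-input kit served the unfixed cells. Fixation and RNA kit therefore cannot be told apart, and neither can perfusion with PBS and genotype. Per the labels, mononuclear cells were stained for Vcam, CD31, CD45 and Sca-1 before sorting. The labels do not say which fractions were kept, how the reporter was used, or whether each library is a different animal. The p-values therefore reflect the spread between the libraries at hand, which may be technical.

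Endothelial cells form the inner wall of every blood vessel and hold together through adherens and tight junctions. They survive and sprout in response to vascular endothelial growth factors and angiopoietins, which they sense through receptor tyrosine kinases, and their identity is set by transcription factors of the ETS and SOXF families. In skeletal muscle, capillary endothelium runs along each fibre close to satellite cells and passes fatty acids from the blood to the fibre.

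Values are FPKM, fragments scaled to transcript length and library size, so levels of different genes can be set side by side. The defining endothelial markers Pecam1, Cdh5, Kdr and Tie1 stayed below 4 FPKM in the 6 libraries other than the PBS-perfused ones, while the satellite cell factor Pax7 read 328 and 567 FPKM in PFA-perfused cells. Pax7 read 48.3 and 79.6 FPKM in PBS-perfused, 19.8 and 20.4 FPKM in unperfused, and 4.59 and 4.40 FPKM in injury-activated cells. Other satellite cell genes had other orders, and of the 12 listed and tested 3 were higher and 7 lower in PBS-perfused than in PFA-perfused cells. Sdc4, a surface proteoglycan of satellite cells, was lowest in PFA-perfused cells (420 and 239 FPKM) and highest in unperfused cells (28149 and 40319 FPKM), and the myogenic factor Myf5 was also highest there (1261 and 2598 FPKM). The white blood cell marker Ptprc, which encodes CD45, was at 0.25 FPKM or less in every library. Total FPKM lay between 461454 and 582336 a library. The ribosomal RNA entry Rn45s held 9.80% and 19.4% of it in PFA-perfused cells, 0.893% and 6.64% in PBS-perfused cells and at most 0.363% in the others, and its part in the results below was not tested.

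Promoters were printed for 4 members because the ETS and SOX families are themselves among the genes measured. These 4 also include members that were higher in PBS-perfused than in PFA-perfused cells and 1 that was not. Of the 33 members, 16 were found by symbol in a RefSeq promoter table of build GRCm38.p6. Each sequence gives the 250 bases before the gene start, 5′ to 3′ on the gene's strand, and capitals mark matches to AGGAAG (a core of ETS sites) or to ACAAAG or ACAATG (cores of SOX sites), read on both strands. The regions are chr5:147726012-147726261 (minus strand) for Flt1, a receptor for vascular endothelial growth factor, chr6:55336049-55336298 (plus) for Aqp1, a water channel, chr16:18776597-18776846 (plus) for Cldn5, the claudin of endothelial tight junctions, and chr4:94739039-94739288 (plus) for Tek, the angiopoietin receptor.
Flt1: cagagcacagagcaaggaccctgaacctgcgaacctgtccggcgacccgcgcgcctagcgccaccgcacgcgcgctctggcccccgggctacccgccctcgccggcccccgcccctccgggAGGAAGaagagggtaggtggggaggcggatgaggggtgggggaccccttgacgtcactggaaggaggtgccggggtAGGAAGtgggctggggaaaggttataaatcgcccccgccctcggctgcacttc
Aqp1: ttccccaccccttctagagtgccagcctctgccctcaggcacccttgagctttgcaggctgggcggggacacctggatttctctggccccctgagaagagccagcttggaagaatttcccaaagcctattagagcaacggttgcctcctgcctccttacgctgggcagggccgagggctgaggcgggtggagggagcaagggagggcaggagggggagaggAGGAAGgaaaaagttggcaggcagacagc
Cldn5: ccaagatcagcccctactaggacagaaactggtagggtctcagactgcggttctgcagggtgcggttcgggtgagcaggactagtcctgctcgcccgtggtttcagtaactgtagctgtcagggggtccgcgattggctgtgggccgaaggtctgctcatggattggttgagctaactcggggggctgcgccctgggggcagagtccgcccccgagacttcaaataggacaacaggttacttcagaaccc
Tek: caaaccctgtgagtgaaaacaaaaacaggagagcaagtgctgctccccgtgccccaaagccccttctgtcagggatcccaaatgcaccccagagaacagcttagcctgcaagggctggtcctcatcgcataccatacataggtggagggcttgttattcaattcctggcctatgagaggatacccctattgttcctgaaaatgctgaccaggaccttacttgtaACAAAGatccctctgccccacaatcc

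AGGAAG was found in this window in 11 of the 16 matched members, against 32.3% of the 27025 genes of the table. ACAAAG or ACAATG was found in 7 of the 16, against 28.2% of genes. GATAAG, a core of GATA sites, was in 1 of the 16 (7.6% of genes), and GGGCGG, a core of SP and KLF sites, was in 8 of the 16 (35.4% of genes). The Flt1 window held 2 AGGAAG matches and the Aqp1 window 1, and the Tek window held 1 SOX match. Neither AGGAAG nor the SOX letters were found in the Cldn5 window. Matches to GGGCGG, which are not capitalised above, numbered 3 for Flt1, 1 for Aqp1, 1 for Cldn5 and 0 for Tek. None of these letter strings contains another. They are matches of letters, not measured sites.

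**Figure D1:**
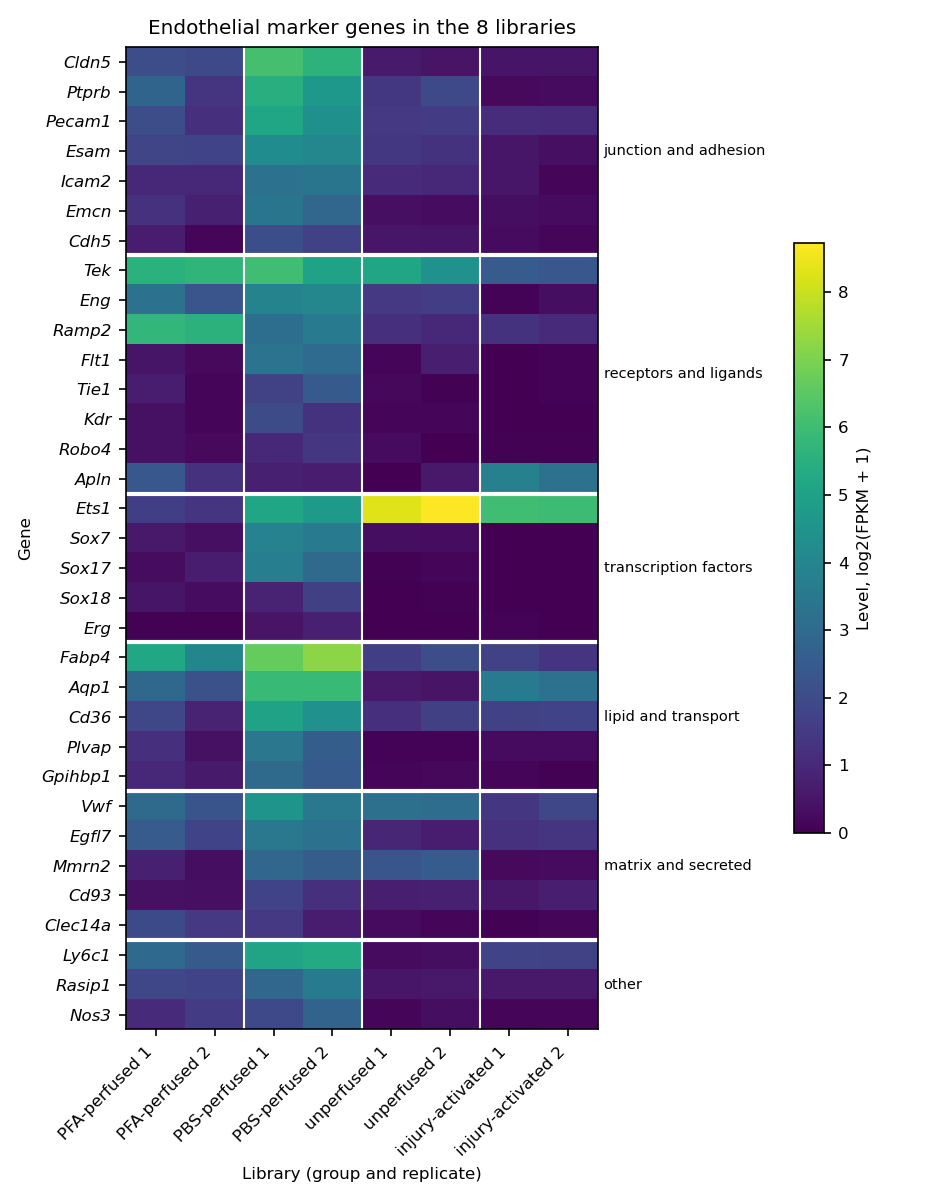
Level of each of the 33 endothelial marker genes (vertical axis, grouped by role) in each of the 8 libraries (horizontal axis), as log2(FPKM + 1). Brighter cells are higher levels. Both PBS-perfused columns are the brightest for 28 genes, and Ets1, Ramp2, Tek, Apln and Clec14a depart from that pattern.

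The endothelial genes were highest in PBS-perfused cells. For 28 of the 33 members both PBS-perfused libraries lay above all 6 other libraries, and the 5 exceptions were Ets1, Tek, Apln, Clec14a and Ramp2. Among the 30 members that reached the filter of 1 FPKM in at least 2 libraries this held for 25, against 10.4% of the 12515 genes tested. Sox18, Erg and Robo4 did not reach the filter and have no test. Some of the 30 reached it only through the PBS-perfused libraries, so their place above the others was largely set by the filter. Of the 19 members that reach 1 FPKM in at least 2 of the other 6 libraries it held for 14. The share among the 12219 genes meeting the same condition was 8.97%. Of the members, Kdr, Sox17, Sox18, Erg and Apln were listed at 0 in at least 1 library, none of them PBS-perfused or PFA-perfused.

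Of the 33 members, 29 and 30 were at or above 1 FPKM in the PBS-perfused libraries, 21 and 17 in the PFA-perfused, 12 and 10 in the unperfused, and 11 in each injury-activated library. At or above 10 FPKM there were 16 and 15 members in the PBS-perfused libraries and 1 to 3 in each of the others. Summed over the 33 members, the level was 210.1 and 153.6 FPKM in PFA-perfused, 647.4 and 561.7 in PBS-perfused, 377.7 and 475.0 in unperfused, and 110.4 and 99.4 in injury-activated cells. The sum was 0.0180% to 0.122% of all FPKM in a library. Ets1 alone made up 83.0% and 88.7% of the sum in unperfused cells, and 59.3% and 62.3% after injury. Bulk RNA cannot tell a difference in the number of endothelial cells from a difference in RNA per cell. Nor can it tell either of them from RNA of these genes made by other cells.

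Against PFA-perfused cells, 26 of the 30 tested members were higher in PBS-perfused cells and 2 were lower, by limma with Benjamini-Hochberg adjustment over all genes. Over all 12515 genes, 17.8% were called higher and 46.2% lower in that comparison. The median difference on the log2(FPKM + 1) scale was 2.16 for the tested members and -0.50 for all genes. Against unperfused cells, 25 members were higher and 1 was lower, against 36.5% and 13.1% of all genes, and the median difference was 2.58 for the members and 0.36 for all genes. The 2 comparisons share the PBS-perfused libraries and are not independent of each other.

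The filter bears on these counts. Cdh5, Kdr, Flt1, Tie1, Emcn, Sox7, Sox17, Gpihbp1, Plvap, Icam2 and Cd93 (11 of the 30) passed it only through the PBS-perfused libraries, so they were tested because they are high there. The first 4 of these, Sox7, Sox17 and Cd93 (7 in all) stayed below 1 FPKM in all 6 other libraries. The values of the 11 are a description, also where they enter counts by role below. Of the 19 members that reach 1 FPKM in at least 2 of those other 6 libraries, 15 were higher against PFA-perfused cells and 14 against unperfused cells. The shares among the 12219 genes meeting the same condition were 16.4% and 35.5%.

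**Figure D2:**
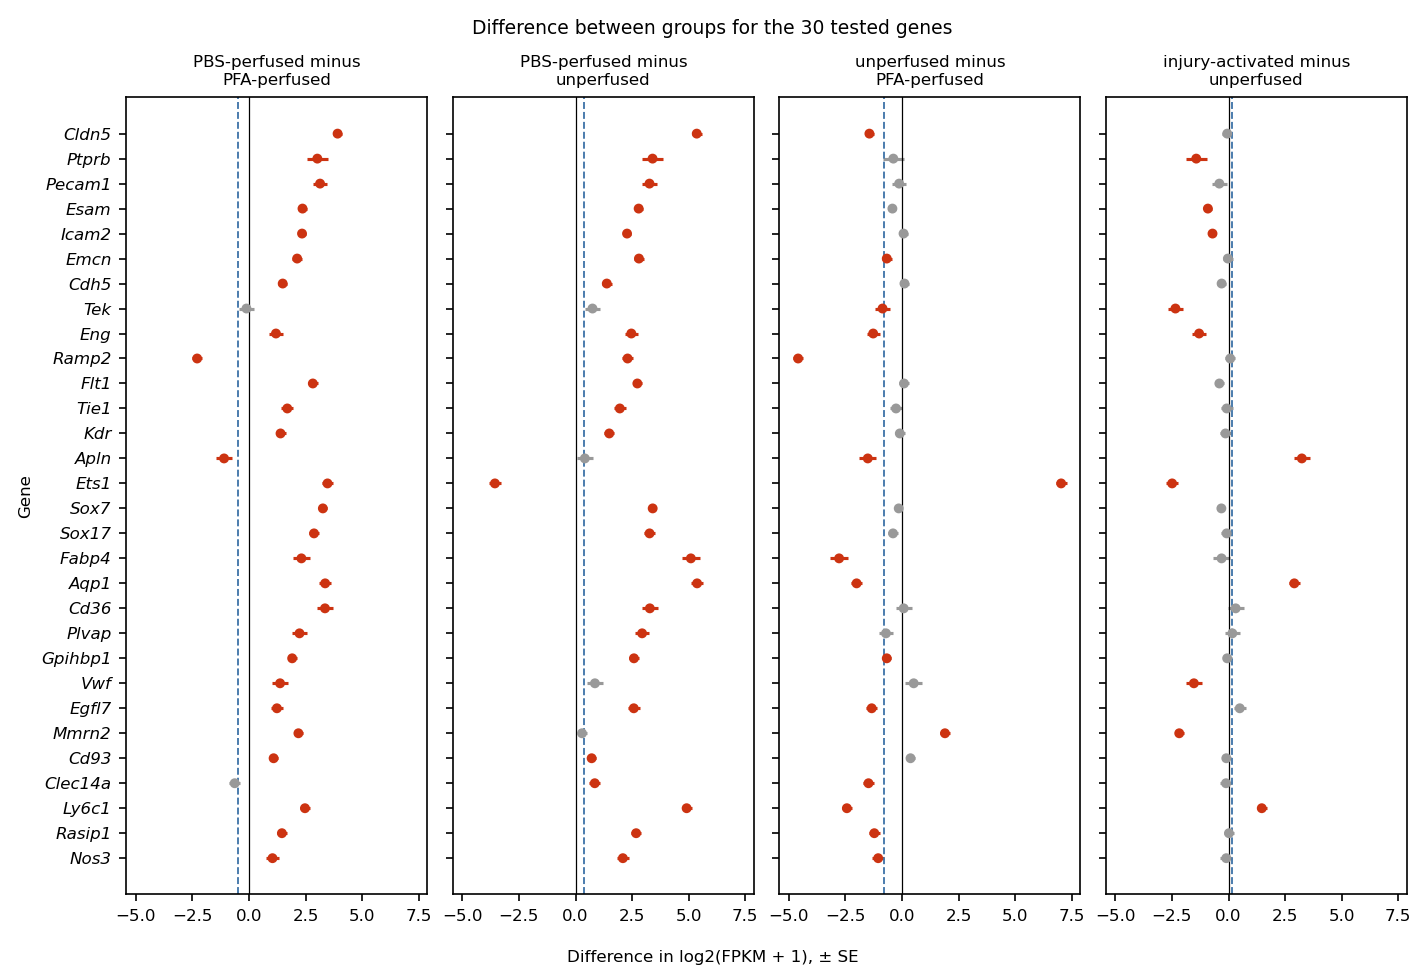
Difference in log2(FPKM + 1) for each tested member in 4 comparisons between groups, with bars of 1 standard error red points where the limma adjusted p is under 0.05, grey points otherwise, and a dashed line at the median of all genes. In the first panel 26 red points lie right of 0 and in the second 25, while the red points of the other 2 panels lie mostly left of 0. Over all genes, 17.8% and 36.5% were called higher in the first 2 comparisons, and 56.3% and 29.3% lower in the last 2.

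The 7 junction and adhesion genes were all higher in PBS-perfused cells in both comparisons, beside 17.8% and 36.5% of all genes. Of these, Cdh5, Emcn and Icam2 passed the filter only through the PBS-perfused libraries. Cldn5 read 3.17 and 2.77 FPKM in PFA-perfused, 70.7 and 49.0 FPKM in PBS-perfused, 0.552 and 0.372 FPKM in unperfused, and 0.393 and 0.408 FPKM in injury-activated cells. Both PBS-perfused libraries were more than 10 times as high as any other, and no group overlapped them. The difference to PFA-perfused cells was 3.92 ± 0.22 (SE, log2(FPKM + 1) scale, limma adjusted p = 6.6e-06), and that to unperfused cells was 5.36 ± 0.22 (adjusted p = 1.73e-06).

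Pecam1, which encodes the adhesion protein CD31 named in the sort, read 3.13 and 1.25 FPKM in PFA-perfused, 33.9 and 19.7 in PBS-perfused, 1.71 and 1.87 in unperfused, and 1.14 and 1.06 in injury-activated cells. Its PBS-perfused libraries stood above the rest, and the other 6 libraries lay between 1.06 and 3.13 FPKM. The difference to PFA-perfused cells was 3.14 ± 0.32 (limma adjusted p = 7.36e-05), and unperfused and PFA-perfused cells differed by -0.13 ± 0.32 (adjusted p = 0.733).

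Ptprb, the vascular endothelial protein tyrosine phosphatase, read 6.06 and 1.45 FPKM in PFA-perfused, 44.8 and 23.9 in PBS-perfused, 1.68 and 2.79 in unperfused, and 0.179 and 0.191 in injury-activated cells. Esam, a tight junction adhesion molecule, read 2.51 and 2.35, 18.0 and 15.5, 1.68 and 1.43, and 0.440 and 0.275 FPKM in the same order of groups. Icam2, a ligand for leukocyte integrins, read 0.960 and 0.972, 8.45 and 9.54, 1.12 and 0.998, and 0.426 and 0.112 FPKM. In each of these 3 genes the PBS-perfused libraries did not overlap the others, and the injury-activated libraries were lowest. For Icam2 the lack of overlap is a description only, since it passed the filter through the PBS-perfused libraries.

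Emcn, the sialomucin endomucin of capillaries and veins, read 1.38 and 0.682 FPKM in PFA-perfused, 9.46 and 6.30 in PBS-perfused, 0.276 and 0.228 in unperfused, and 0.266 and 0.187 in injury-activated cells. It fell into 3 levels, with PBS-perfused cells highest and PFA-perfused cells between them and the rest. Cdh5, the cadherin of endothelial adherens junctions, was low throughout, at 3.27 and 2.22 FPKM in PBS-perfused cells and between 0.0832 and 0.609 FPKM in the other 6 libraries. Its difference to PFA-perfused cells was 1.49 ± 0.21, a description only, since it passed the filter through the PBS-perfused libraries.

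The receptors and ligands split. Of 7 tested, 4 were higher and 2 were lower in PBS-perfused than in PFA-perfused cells, beside 17.8% and 46.2% of all genes. The 4 higher ones were Flt1, Kdr, Tie1 and Eng, and only Eng passed the filter without the PBS-perfused libraries. Flt1 read 0.424 and 0.162 FPKM in PFA-perfused, 8.99 and 7.27 in PBS-perfused, 0.124 and 0.663 in unperfused, and 0.00472 and 0.0583 in injury-activated cells. Kdr, the main signalling receptor for vascular endothelial growth factor, read 3.03 and 1.40 FPKM in PBS-perfused cells and at most 0.301 FPKM elsewhere. Tie1, an orphan receptor related to Tek, read 2.29 and 4.51 FPKM in PBS-perfused cells and at most 0.614 FPKM elsewhere. For all 3 receptor kinases the PBS-perfused libraries lay above the other 6 with no overlap. This is a description only, since all 3 passed the filter only through the PBS-perfused libraries.

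Tek behaved otherwise. It read 46.5 and 50.9 FPKM in PFA-perfused, 64.6 and 31.2 in PBS-perfused, 34.0 and 20.4 in unperfused, and 4.64 and 4.11 in injury-activated cells. The PBS-perfused range took in both PFA-perfused values and overlapped the unperfused range, and the injury-activated libraries lay below all others. PBS-perfused and PFA-perfused cells differed by -0.11 ± 0.35 (limma adjusted p = 0.795), a sign that turned to 0.51 with trimmed mean scaling (adjusted p = 0.19), and injury-activated cells fell by 2.35 ± 0.35 against unperfused cells (adjusted p = 0.000259).

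Eng, the endoglin co-receptor of the BMP9 pathway, read 8.69 and 3.89 FPKM in PFA-perfused, 14.1 and 15.4 in PBS-perfused, 1.70 and 1.99 in unperfused, and 0.0692 and 0.243 in injury-activated cells. The 4 groups did not overlap. Its difference of 1.19 ± 0.29 between PBS-perfused and PFA-perfused cells (limma adjusted p = 0.00655) was 0.70 without the second PFA-perfused library.

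Ramp2, the partner that turns the calcitonin-receptor-like receptor into a receptor for adrenomedullin, was highest in PFA-perfused cells. It read 53.4 and 47.4 FPKM in PFA-perfused, 7.89 and 11.3 in PBS-perfused, 1.32 and 0.947 in unperfused, and 1.45 and 1.05 in injury-activated cells. The PFA-perfused libraries lay above all others and the PBS-perfused ones above the remaining 4. PBS-perfused cells fell by 2.29 ± 0.23 against PFA-perfused cells (limma adjusted p = 6.4e-05) and were 2.3 ± 0.23 above unperfused cells (adjusted p = 5.86e-05).

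Apln, which encodes the peptide ligand apelin, was highest after injury. It read 4.22 and 1.34 FPKM in PFA-perfused, 0.682 and 0.576 in PBS-perfused, 0 and 0.498 in unperfused, and 13.1 and 8.51 in injury-activated cells. The injury-activated libraries stood above all others, and the difference to unperfused cells was 3.24 ± 0.37 (limma adjusted p = 4.75e-05). The lower level in PBS-perfused than in PFA-perfused cells, -1.10 ± 0.37 (adjusted p = 0.0258), depended on setting and library. It was -0.68 (adjusted p = 0.142) with trimmed mean scaling and -0.53 (adjusted p = 0.191) without the first PFA-perfused library. It was -1.68, still called, without the second PFA-perfused library, and it missed the threshold without either PBS-perfused library (-1.15 and -1.06). Robo4, a guidance receptor that stabilises vessels, was at 0.961 and 1.60 FPKM in PBS-perfused cells and at most 0.302 FPKM elsewhere, and was not tested.

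**Figure D3:**
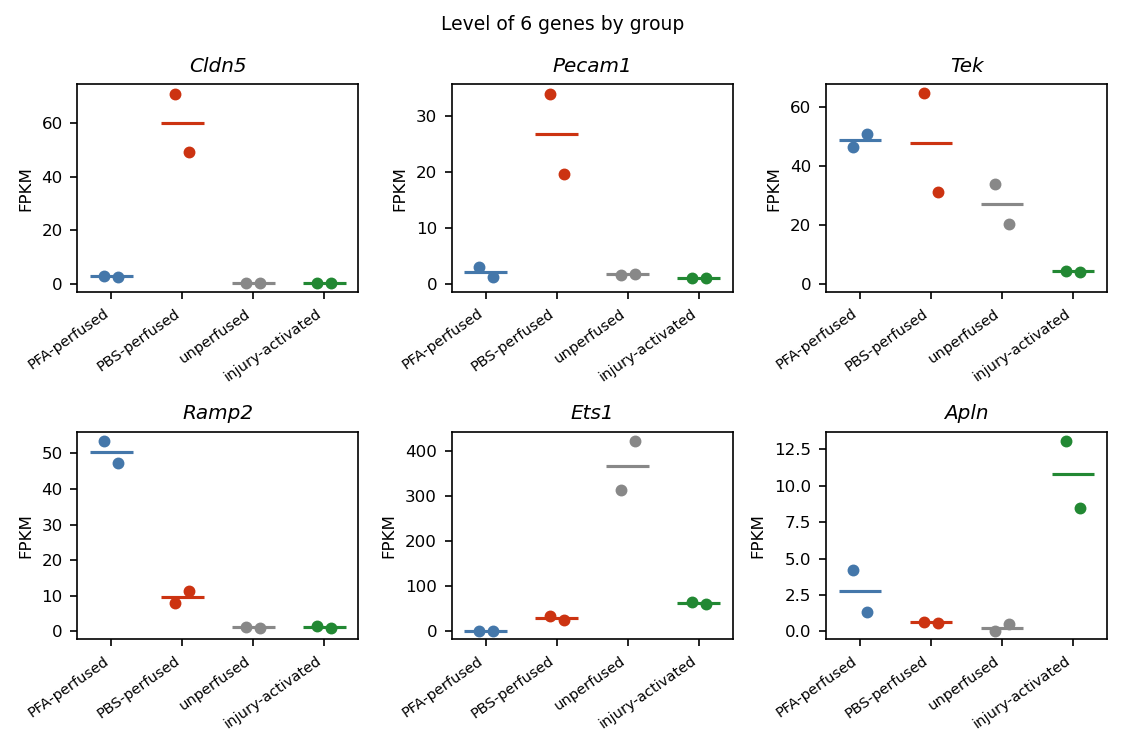
FPKM of Cldn5, Pecam1, Tek, Ramp2, Ets1 and Apln by group, with 1 point per library and a line at the group mean (n = 2). Cldn5 and Pecam1 peak in PBS-perfused cells, Ramp2 in PFA-perfused, Ets1 in unperfused and Apln in injury-activated cells, while Tek overlaps between PFA-perfused and PBS-perfused cells.

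Among the transcription factors, the SOXF genes and Ets1 went different ways. Sox7 read 0.499 and 0.276 FPKM in PFA-perfused, 13.6 and 11.1 in PBS-perfused, 0.266 and 0.234 in unperfused, and 0.00338 and 0.00270 in injury-activated cells. Sox17 read 0.232 and 0.609, 12.3 and 7.03, 0.0295 and 0.106, and 0.0137 and 0 FPKM in the same order. Both were near 0 outside the PBS-perfused libraries, and for Sox7 the difference to PFA-perfused cells was 3.26 ± 0.16, likewise a description only.

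Ets1, a factor found in endothelial cells and in many others, had another order. It read 2.10 and 1.5 FPKM in PFA-perfused, 35.2 and 25.3 in PBS-perfused, 314 and 421 in unperfused, and 65.5 and 61.9 in injury-activated cells. The 4 groups were fully separate, with unperfused cells highest and PFA-perfused cells lowest. Unperfused cells were 7.03 ± 0.25 above PFA-perfused cells (limma adjusted p = 5.47e-07) and PBS-perfused cells 3.47 ± 0.25 above them (adjusted p = 1.81e-05). Sox18 (0.832 and 2.18 FPKM) and Erg (0.386 and 0.686 FPKM) had their highest values in the 2 PBS-perfused libraries, and elsewhere were at most 0.400 and 0.0497 FPKM.

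The 5 genes of lipid handling and transport were higher in PBS-perfused cells in both comparisons, beside 17.8% and 36.5% of all genes. Gpihbp1 and Plvap passed the filter only through the PBS-perfused libraries, so their values are a description. Fabp4, a fatty acid binding protein shared with fat cells, read 36.8 and 15.05 FPKM in PFA-perfused, 101 and 146 in PBS-perfused, 2.10 and 3.13 in unperfused, and 2.27 and 1.55 in injury-activated cells. Aqp1 read 6.48 and 3.52, 59.4 and 58.5, 0.514 and 0.380, and 10.9 and 8.86 FPKM in the same order. Fabp4 was above all others in PBS-perfused cells and next highest in PFA-perfused cells, and Aqp1 was next highest after injury, where it was 2.91 ± 0.26 above unperfused cells (limma adjusted p = 1.1e-05).

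Cd36, a fatty acid translocase that other cells also make, read 2.65 and 0.777 FPKM in PFA-perfused, 31.3 and 20.2 in PBS-perfused, 1.28 and 2.15 in unperfused, and 2.33 and 2.34 in injury-activated cells. Gpihbp1, which carries lipoprotein lipase across capillary endothelium, read 1.01 and 0.560, 7.02 and 4.50, 0.0790 and 0.140, and 0.0783 and 0.0470 FPKM in that order. Plvap, the protein of the diaphragms of endothelial vesicles, read 1.31 and 0.298, 10.1 and 4.96, 0.0526 and 0.0632, and 0.188 and 0.189 FPKM. In each the PBS-perfused libraries lay above every other, and for Cd36 the other 6 libraries lay between 0.777 and 2.65 FPKM.

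Of 5 genes grouped as matrix and secreted, 4 were higher in PBS-perfused than in PFA-perfused cells and 3 higher than in unperfused cells. The shares of all genes were 17.8% and 36.5%. Cd93 and Clec14a of this group are membrane proteins, and Cd93 passed the filter only through the PBS-perfused libraries. Egfl7, a secreted regulator of vessel growth, read 4.72 and 2.41 FPKM in PFA-perfused, 10.2 and 8.63 in PBS-perfused, 0.901 and 0.598 in unperfused, and 1.37 and 1.55 in injury-activated cells. Vwf, the clotting glycoprotein von Willebrand factor, read 7.12 and 3.79, 22.1 and 10.3, 8.23 and 7.61, and 1.62 and 2.63 FPKM in the same order. Its difference to PFA-perfused cells, 1.37 ± 0.37 (limma adjusted p = 0.00973), was 0.86 (adjusted p = 0.0664) without the first PBS-perfused library, and its 0.86 ± 0.37 against unperfused cells missed the threshold (adjusted p = 0.0806). Without the second PFA-perfused library the first of these was 0.99 (limma adjusted p = 0.0762), and without the second PBS-perfused library the other was 1.37 (adjusted p = 0.0158).

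Mmrn2, a matrix protein around endothelial cells, read 0.682 and 0.249 FPKM in PFA-perfused, 6.33 and 4.92 in PBS-perfused, 4.0 and 4.83 in unperfused, and 0.178 and 0.205 in injury-activated cells. PBS-perfused and unperfused cells were close without overlap, at a difference of 0.29 ± 0.20 (limma adjusted p = 0.266), while unperfused cells were 1.90 ± 0.20 above PFA-perfused cells (adjusted p = 3.15e-05). Cd93 was at 2.38 and 1.26 FPKM in PBS-perfused cells and at most 0.710 FPKM elsewhere. Its difference to unperfused cells was 0.71 ± 0.19, and 0.45 with trimmed mean scaling, where it missed the threshold. Clec14a, a lectin that binds Mmrn2, was highest in PFA-perfused cells, at 2.85 and 1.70 FPKM, but its PBS-perfused values of 1.71 and 0.597 FPKM reached into that range. Its -0.63 ± 0.25 against PFA-perfused cells missed the threshold (limma adjusted p = 0.0528). It was called lower, at -1.01 and -0.89, without the first PBS-perfused or the second PFA-perfused library. Its 0.85 ± 0.25 against unperfused cells (limma adjusted p = 0.0207) was 0.47 (adjusted p = 0.119) without the first PBS-perfused library, and Clec14a and Cd93 both missed the threshold there without either unperfused library.

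The remaining 3 members were higher in PBS-perfused cells in both comparisons, beside 17.8% and 36.5% of all genes. Ly6c1, a surface antigen of capillaries, read 6.94 and 4.59 FPKM in PFA-perfused, 33.2 and 39.1 in PBS-perfused, 0.203 and 0.256 in unperfused, and 2.49 and 2.31 in injury-activated cells, though its near-identical neighbour Ly6c2 may share fragments with it and makes the value uncertain. Rasip1, needed to open vessel lumens, read 2.61 and 2.34, 6.41 and 11.2, 0.445 and 0.522, and 0.505 and 0.497 FPKM in the same order. Nos3, endothelial nitric oxide synthase, was highest in PBS-perfused cells (2.76 and 5.79 FPKM) and at most 1.91 FPKM elsewhere. Its difference of 1.04 ± 0.27 to PFA-perfused cells (limma adjusted p = 0.00863) was 0.796 (adjusted p = 0.0654) without the first PFA-perfused library and 0.61, still called, without the second PBS-perfused one. All 3 genes kept both PBS-perfused libraries above the other 6.

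The size of the PBS-perfused excess varied among the 25 tested members that lay above all other libraries. The ratio of mean FPKM in PBS-perfused to PFA-perfused cells ran from 2.34 for Eng to 31.9 for Sox7, with a median of 9.14. These 25 were picked for their place, so their ratios had to exceed 1. Over the 31 members of at least 1 FPKM on average in PBS-perfused cells, the lowest ratio was 0.191, for Ramp2. The median of the 31 was 7.66, with 3 below 1. Between the PBS-perfused libraries, the ratio of the first to the second ran from 0.382 for Sox18 to 2.86 for Clec14a over 31 members of at least 1 FPKM on average, with 21 above 1 and a median of 1.29, against 1.04 for all genes. Between the PFA-perfused libraries, the ratio of the first to the second was above 1 in 17 of 19 members, with a median of 1.84 against 1.09 for all genes. The lowest was Nos3 at 0.565 and the highest Ptprb at 4.17.

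Unperfused and PFA-perfused cells were compared next. Against PFA-perfused cells, 2 of the 30 tested were higher in unperfused cells (Ets1 and Mmrn2) and 14 were lower, against 17.4% and 56.3% of all genes, and the median difference was -0.55 for the members and -0.81 for all genes. The 30 include members that passed the filter only through the PBS-perfused libraries, which are not in this comparison. With only the 2 groups compared, 19 members were tested, of which 2 were higher and 12 lower. Of the 11695 genes tested in that setting, 2052 were higher and 6731 lower. The lower calls included Ramp2 at -4.59 ± 0.23 (limma adjusted p = 8.47e-07), Fabp4 at -2.78 ± 0.39 (adjusted p = 0.000153) and Ly6c1 at -2.44 ± 0.22 (adjusted p = 1.16e-05). The count depended on scaling: with trimmed mean scaling 5 members were higher and 8 lower, and with quantile normalization 9 and 6. Tek is a case in which the direction turned, from -0.86 ± 0.35 (adjusted p = 0.0487) to 0.31 with trimmed mean scaling, and it missed the threshold without any 1 of 5 single libraries (both PFA-perfused, both injury-activated and the second unperfused, where it was -0.51). Emcn and Gpihbp1 lost the call without the first PFA-perfused library (-0.43 and -0.49) or either unperfused one, and Nos3 (-0.97) and Apln (-1.22) without the first unperfused library. Without the first PFA-perfused library Eng was -0.78 against -1.28 and Apln -0.94 against -1.51, both still called. Ptprb was called lower, at -1.15, without the second PFA-perfused library. Cldn5, Fabp4, Aqp1, Ly6c1, Clec14a and Ramp2 were lower under all 3 scalings.

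After injury, 3 of the 30 tested members were higher than in unperfused cells (Aqp1, Apln and Ly6c1) and 8 were lower (Tek, Esam, Eng, Ets1, Mmrn2, Vwf, Ptprb and Icam2), against 40.8% and 29.3% of all genes. The median difference was -0.11 for the members and 0.17 for all genes. Here too the 30 include members that passed the filter only through the PBS-perfused libraries, which are not compared. With only the 2 groups compared, 15 members were tested, of which 4 were higher and 8 lower. In that setting 5192 of 10818 genes were higher and 3611 lower. Ets1 fell by 2.49 ± 0.25 (limma adjusted p = 2.26e-05) and Mmrn2 fell by 2.18 ± 0.20 (adjusted p = 1.44e-05). Ptprb (-1.43 ± 0.46, limma adjusted p = 0.0206) missed the threshold without any 1 of the 4 libraries compared, at -1.68 to -1.18, and Icam2 (-0.71 ± 0.18, adjusted p = 0.00538) without the second injury-activated library, at -0.53. This comparison shares the unperfused libraries with the one before.

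Another 42 endothelial genes, in 5 lists kept apart from the members, were counted in the same way. Of 31 tested, 25 were higher and 2 lower in PBS-perfused than in PFA-perfused cells, and 25 and 2 against unperfused cells. Of these 31, 11 passed the filter only through the PBS-perfused libraries. Among the 20 that reach 1 FPKM in at least 2 of the other 6 libraries, 14 were higher in each comparison, beside 16.4% and 35.5% of all genes under that condition. S1pr1, the sphingosine phosphate receptor of endothelium, read 5.62 and 2.57 FPKM in PFA-perfused, 29.7 and 23.4 in PBS-perfused, 2.67 and 2.50 in unperfused, and 1.10 and 1.12 in injury-activated cells. Thbd, the anticoagulant thrombomodulin, read 26.1 and 16.3 FPKM in unperfused cells, above its 16.1 and 12.0 FPKM in PBS-perfused cells. Of the 5 venous genes, all tested, 3 were higher in PBS-perfused than in PFA-perfused cells and 2 were not called. The higher ones include the leukocyte-capturing selectins. Selp read 50.9 and 23.5 FPKM in PBS-perfused cells and 0.138 and 0.0435 in PFA-perfused cells, and Sele read 21.0 and 14.5 FPKM in PBS-perfused cells whereas the fixed libraries both list it at 0. Elsewhere Selp was at most 2.83 FPKM and Sele at most 0.733 FPKM. Sele thus passed the filter only through the PBS-perfused libraries, and its values are a description. Ephb4, of the same list and not called, read 5.09 and 5.87 FPKM in PFA-perfused and 3.32 and 5.56 FPKM in PBS-perfused cells.

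Lists of other cell types that a muscle preparation can hold were counted in the same comparison, in which 17.8% of all genes were higher and 46.2% lower in PBS-perfused cells. Of 9 tested haematopoietic genes (14 in the list) 7 were higher than in PFA-perfused cells and none lower. The sum over the list read 9.39 and 8.29 FPKM in PFA-perfused, 49.5 and 47.7 in PBS-perfused, 38.2 and 26.9 in unperfused, and 74.5 and 81.7 in injury-activated cells. Lyz2, the lysozyme of myeloid cells, was the highest of them, at 42.9 and 44.0 FPKM after injury and 13.4 and 13.3 FPKM in PBS-perfused cells. Of 10 tested fibro-adipogenic genes 7 were higher and 1 lower. The higher ones include Smoc2, a matrix protein, at 0.466 and 0.709 FPKM in PFA-perfused against 11.9 and 12.5 FPKM in PBS-perfused cells. The lower one was Dpt, the highest of the list, at 633 and 318 against 69.4 and 260 FPKM. The sum over the 11 listed fibro-adipogenic genes was 997.1 and 561.1 FPKM in PFA-perfused, 434.8 and 618.2 in PBS-perfused, 851.5 and 718.7 in unperfused, and 120.1 and 96.0 in injury-activated cells. Of 11 tested mural genes, which mark the cells around vessels, 3 were higher and 2 lower, and their sum was 264.2 and 189.4 FPKM in PFA-perfused, 187.6 and 159.2 in PBS-perfused, 108.9 and 67.4 in unperfused, and 59.0 and 49.1 in injury-activated cells. Of 5 tested erythroid genes 3 were higher, and the sum over 8 genes was 82.7 and 0.416 FPKM in PFA-perfused, 115 and 134 in PBS-perfused, and 5.57 to 12.0 in the other 4 libraries. The globin genes have near-identical copies, so single values are uncertain. The macrophage marker Adgre1 was listed at 0 in 3 libraries and reached 2.0 FPKM after injury. Ly6a, which encodes Sca-1, read 17.7 and 19.3 FPKM in PBS-perfused cells, 3.46 and 2.82 in PFA-perfused, 0.535 and 0.687 in unperfused, and 8.40 and 7.58 in injury-activated cells. The 11 early stress genes were all higher in PBS-perfused than in PFA-perfused cells, and their sum read 14116 and 14072 FPKM there and at most 1749 FPKM in the other 6 libraries. Tenocyte genes (5 of 6 tested higher, 1 lower) and glial genes (0 of 4 higher, 1 lower) were counted against PFA-perfused cells too. A second count took only genes reaching 1 FPKM in at least 2 of the 6 libraries that are not PBS-perfused. Higher than in PFA-perfused cells were 6 of 8 haematopoietic, 7 of 10 fibro-adipogenic and 2 of 10 mural genes. For erythroid, tenocyte and glial genes the counts were 2 of 4, 5 of 6 and 0 of 4. The share of all genes under that condition was 16.4%. The part of these lists in the endothelial result was not tested.

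**Figure D4:**
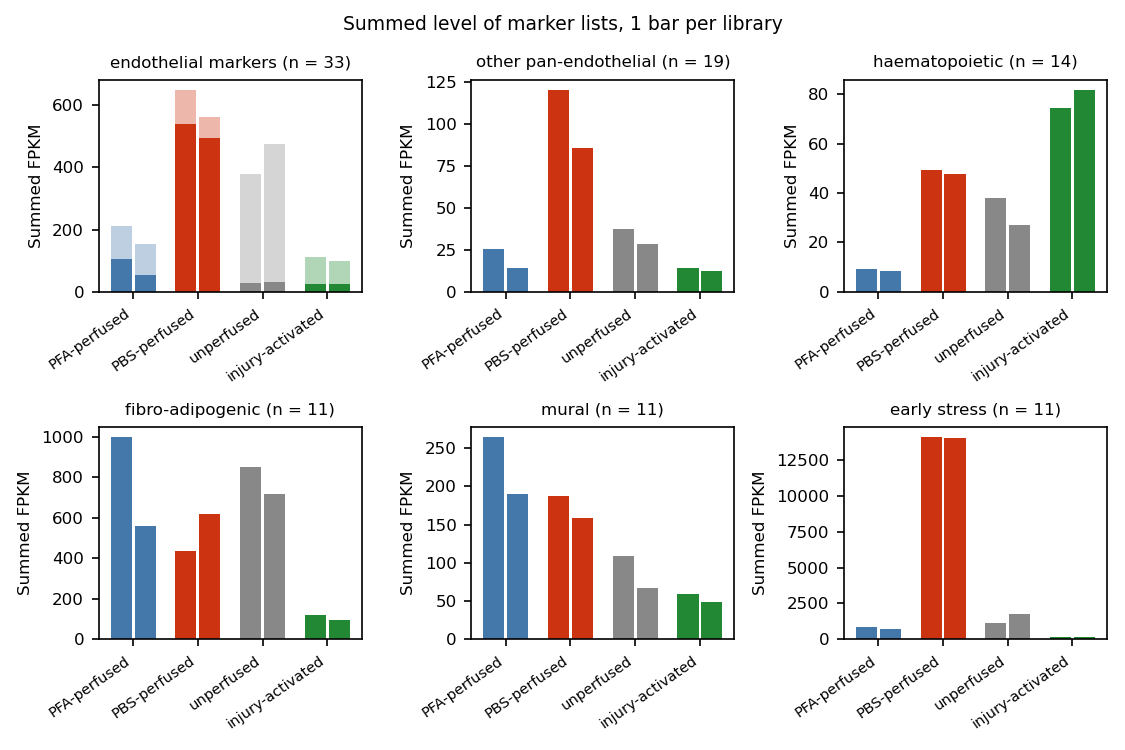
Summed FPKM of 6 marker lists (vertical axis), with 1 bar per library in each of the 4 groups. In the first panel the pale parts are Ets1, Ramp2, Tek and Apln, a division made after their values were seen. The other 29 genes sum to 539.0 and 493.3 FPKM in PBS-perfused cells and to at most 103.9 FPKM in any other library.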

How the data were processed

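PolyA+ RNA from sorted muscle stem cells was amplified with SMART-Seq v4, sheared and sequenced in 8 libraries, per the labels' protocols. The authors deposited 1 table of 24328 gene symbols, whose header names no unit. The deposited values were taken as FPKM, fragments the authors scaled to transcript length and library size before deposit, because they are decimal, their totals differ between libraries and StringTie writes this unit. The submitters' processing notes name STAR 2.5.3a, StringTie 1.3.3, R 3.4.1 and mm9, without roles or settings. Depth is unknown, since counts were not used here, and no counting interval is given. The files' build differs from that of the promoter table, which was used for sequences only.

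Values were analysed as log2(FPKM + 1), which understates the change of low genes. The 12515 genes reaching 1 FPKM in 2 or more libraries entered 1 limma 3.58.1 model in R 4.3.3 over all 8 libraries, with a variance trend and no covariate. A gene was called at a two-sided Benjamini-Hochberg adjusted p under 0.05. The code was tested on simulated data. Alternatives were a replicate block, no filter, a filter of 5 FPKM, a pseudocount of 0.1, trimmed mean scaling (trims of 0.3 and 0.05), quantile normalization, only the 2 groups compared, and leaving out each library.

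The members and lists were chosen with earlier results of these data known. Members reaching a mean of 5 FPKM in any group are given for every library, the others by range, and of each other list up to 4 genes are drawn from its 4 highest, except the ligands, where any may be named. Smoc2 and Adgre1 were named after their values were seen. All 33 members stay in the lists whether tested or not.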

Additional observations from a re-analysis of the deposited data

How the results depend on the processing

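Over 1680 values of the 30 tested members under the alternatives, 1590 kept their direction and side of the threshold. Of the rest, 53 lost and 34 gained a call, and 3 turned sign, none of them called in both settings. The 3 lie between unperfused and PFA-perfused cells: Tek at 0.31 with trimmed mean scaling, and Pecam1 at 0.81 and Esam at 0.53 with quantile normalization. Tek was called in the main fit but not there, and Pecam1 and Esam were called there but not in the main fit. Among the values kept, 32 changed sign without being called in either setting.

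The count of members lower in PBS-perfused than in PFA-perfused cells, 2, was 1 with no filter, a pseudocount of 0.1, trimmed mean scaling and quantile normalization, where Apln missed the threshold. The members higher in unperfused than in PFA-perfused cells, 2, became 1 with a filter of 5 FPKM, 5 with trimmed mean scaling and 9 with quantile normalization, and the 14 lower ones became 8 and 6. Leaving out each library in turn gave 18 to 26 higher and 1 to 3 lower members against PFA-perfused cells, 17 to 25 higher and 1 lower against unperfused cells, 2 higher and 10 to 16 lower for unperfused against PFA-perfused cells, and 3 to 4 higher and 6 to 8 lower after injury. The lowest of the counts for PBS-perfused cells come without a PBS-perfused library, where 23 members remain tested. A group left with 1 library is assumed to vary like the others.

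Over all genes, the higher and lower calls for PBS-perfused against PFA-perfused cells were 2225 and 5783, against 3616 and 3200 with trimmed mean scaling and 3148 and 4108 with quantile normalization. Against unperfused cells they were 4562 and 1643, against 2869 and 3067 and then 3042 and 2793. For unperfused against PFA-perfused cells they were 2173 and 7043, against 4504 and 3993 and then 3906 and 4542. After injury they were 5100 and 3663, against 4527 and 4609 and then 4560 and 4197. The cause was not tested.

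With the replicate number as a block, 26 members were higher and 3 lower in PBS-perfused than in PFA-perfused cells, 25 and 1 against unperfused cells, 2 and 15 for unperfused against PFA-perfused cells, and 3 and 8 after injury. The labels do not pair the libraries, and the deviations of same-numbered libraries correlated at -0.0467 to 0.117 across genes. With 2 libraries a group and no counts, the precision of low values cannot be given.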

Other observations

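Ligands and partner proteins of the endothelial receptors, a list of 14 genes, were spread over the groups. Of 10 tested, 6 were higher and 4 lower in PBS-perfused than in PFA-perfused cells (limma with Benjamini-Hochberg adjustment), beside 17.8% and 46.2% of all genes. Vegfa, the main growth factor for vessels, read 8.58 and 7.96 FPKM in PFA-perfused, 13.8 and 21.3 in PBS-perfused, 11.0 and 12.7 in unperfused, and 1.43 and 1.74 in injury-activated cells. It was lowest after injury, where it fell by 2.31 ± 0.23 (limma adjusted p = 2.45e-05) against unperfused cells. Nrp1, a co-receptor for this factor, was highest after injury, at 54.3 and 49.1 FPKM against 15.1 and 11.4 FPKM in unperfused cells. Calcrl, the receptor that Ramp2 partners, read 2.67 and 4.32 FPKM in PFA-perfused, 12.1 and 8.61 in PBS-perfused, 26.4 and 16.1 in unperfused, and 1.17 and 1.49 in injury-activated cells, so it was not highest in the group where Ramp2 was. Gdf2, which encodes BMP9, was listed at 0 in all 8 libraries, and Acvrl1, its receptor, was highest in PFA-perfused cells, at 6.41 and 6.82 FPKM.

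Arterial and lymphatic genes were mixed. Hey1, an arterial Notch target that satellite cells also use, read 70.5 and 52.8 FPKM in PFA-perfused, 43.2 and 34.2 in PBS-perfused, 5.5 and 7.77 in unperfused, and 1.58 and 1.12 in injury-activated cells. Efnb2, an arterial ephrin, was highest in unperfused cells, at 8.89 and 13.4 FPKM, and below 0.3 FPKM in PFA-perfused cells. Pdpn, a lymphatic surface protein also made by other cells, read 142 and 80.7 FPKM in PFA-perfused, 1009 and 1245 in PBS-perfused, 6643 and 8698 in unperfused, and 116 and 117 in injury-activated cells. The lymphatic factor Prox1 lay between 15.5 and 26.5 FPKM in the first 3 groups and at 4.06 and 6.06 FPKM after injury, while Lyve1, the hyaluronan receptor of lymphatic endothelium, read 2.48 and 2.41 FPKM in PBS-perfused cells and at most 0.563 FPKM elsewhere.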
